A study of Mus musculus with 107 samples.

Results

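The 7 genes described here, Cdh5, Pcdh12, Pecam1, Esam, Jam2, Cldn5 and Emcn, encode surface proteins of endothelial cells, and all but the last are known from the contacts between these cells. They were chosen by name, though with earlier results of these data known, and each was found once among the 50686 genes of the table. RNA was measured in subcutaneous tumors of 12 mouse syngeneic models, in which a mouse cancer cell line is grown in immunocompetent mice of a matching strain. Each model is 1 cell line, RAG being a line adapted by growth in vivo, and each was implanted into the right flank of mice 7 weeks old. The host strain was BALB/cAnNCrlCrlj for BNL 1ME A.7R.1 (BNL in the text), Renca, RAG, CT26.WT, 4T1 and EMT6. It was C57BL/6NCrl for MC38 and B16-F10, C57BL/6JCrl for LL/2, C57L/J for Hepa 1-6, DBA/2NCrl for KLN205 and C3H/HeNCrl for MBT2. Hosts of BNL and Hepa 1-6 were male and the others female. B16-F10 is a melanoma and MBT2 a bladder tumor, and the other lines come from the liver (BNL, Hepa 1-6), kidney (Renca, RAG), lung (LL/2, KLN205), large intestine (CT26.WT, MC38) and mammary gland (4T1, EMT6). The 35 treatment-naive tumors were collected at about 100 mm3, the 36 tumors without treatment (NT) on day 8, and the 36 tumors given lenvatinib (LEN) on day 8 after 7 days of 10 mg/kg by mouth each day. Every group held 3 tumors from separate mice, except treatment-naive MC38 with 2.

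Endothelial cells line blood vessels and hold to each other through adherens junctions and tight junctions, which set how leaky the vessel is. VE-cadherin, the product of Cdh5, is the adhesion protein of the adherens junction, where it binds catenins, and claudin-5, the product of Cldn5, forms tight junction strands with ESAM and the JAM proteins beside it. LEN inhibits several receptor tyrosine kinases, among them the VEGF receptors on which the vessels of many tumors depend, and PECAM-1 (CD31), the product of Pecam1, is the protein commonly stained to count tumor vessels.

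On the GRCm38 genome, all 7 genes are annotated as protein-coding. Cdh5 spans 104101625 to 104144511 of chromosome 8, Pecam1 106654217 to 106750628 of chromosome 11, and Esam 37528078 to 37538319 of chromosome 9. Jam2 (84774123 to 84825928) and Cldn5 (18776847 to 18778262) are both on chromosome 16, and Emcn spans 137341067 to 137432185 of chromosome 3. Cldn5 has 1 exon, while the longest coding transcript of Cdh5 and of Emcn has 12. The annotation places another gene over part of Cdh5 (Gm29682) and of Jam2 (Gm25908), and the division of reads between overlapping genes could not be checked.

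The RefSeq promoter table held 2 of the 7 genes, Emcn and Cldn5, both of which fell under LEN as described below. The 239 bases of the table's window outside exons, which end 0 bases (Emcn) and 11 bases (Cldn5) before the annotated gene start, are shown for this pair to let their composition be compared, with every GGAA, the core letters bound by ETS factors, and its reverse complement in capitals (GRCm38.p6, plus strand, chr3:137340828-137341066 for Emcn and chr16:18776597-18776835 for Cldn5).
Emcn: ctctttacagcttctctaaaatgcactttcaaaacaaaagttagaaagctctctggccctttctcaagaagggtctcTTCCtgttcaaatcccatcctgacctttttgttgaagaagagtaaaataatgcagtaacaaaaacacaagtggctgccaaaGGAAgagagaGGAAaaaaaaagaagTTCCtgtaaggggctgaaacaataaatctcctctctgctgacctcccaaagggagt
Cldn5: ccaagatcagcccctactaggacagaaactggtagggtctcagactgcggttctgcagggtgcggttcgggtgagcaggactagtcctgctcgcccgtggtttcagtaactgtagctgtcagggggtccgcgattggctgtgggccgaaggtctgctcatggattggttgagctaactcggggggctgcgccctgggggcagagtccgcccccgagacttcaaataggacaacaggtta
These windows differed in composition. That of Emcn had 40.6% G and C and 0 CG dinucleotides, and that of Cldn5 had 59.8% and 12, against medians of 52.3% and 5 over the first 239 bases of 32851 promoter windows. The ETS core occurred 4 times in Emcn and 0 times in Cldn5, and 92.6% of all windows held it at least once. ACAAT, the core letters of SOX sites, searched on both strands like the others, occurred 1 time in Emcn and 0 times in Cldn5 (27% of all windows), and GGGCGG, an SP/KLF site, 1 time in Cldn5 and 0 times in Emcn (31.2%). Neither window held TAAACA of FOX sites, which 11.7% of all windows hold, nor GATAA of GATA sites (22%), nor the TATA box letters TATAAA (12%). These matches describe letters and not bound sites.

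Expression was deposited as TPM, which is scaled by transcript length and to the same total in every tumor, so levels can be compared between genes but the read depth behind them is unknown. Protein-coding genes took 27.5% to 66.6% of the TPM of a tumor. The lowest share was that of 1 LEN tumor of 4T1 (replicate 4), which stood apart from the other LEN tumors of 4T1, at 43.8% and 45.3%, had Gm26917 as its top gene with 24.2% of TPM, and detected 21216 genes against 22966 and 23031. Among the 5 endothelial markers Kdr, Tie1, Erg, Egfl7 and Robo4, none was at 0 in all tumors of a group, so endothelial RNA was present in each group. In bulk tumors, the number of endothelial cells, their RNA per cell and RNA from other cells cannot be told apart. This holds for every difference below. In the labels, no tumor is tied to 1 of the sequencing instruments used, so a difference between day 8 and treatment-naive tumors cannot be told apart from such a batch.

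In treatment-naive tumors, all 7 genes were detected in every tumor, and Pecam1 and Cdh5 had the highest levels of the set in most models. Over the 35 tumors, Pecam1 ranged from 11.02 to 47.46 TPM with a median of 18.77, and Cdh5 from 6.88 to 33.82 TPM with a median of 16.75. Esam ranged from 5.23 to 34.07 TPM (median 8.98) and Emcn, which encodes endomucin, a mucin-like glycoprotein of capillary and venous endothelium, from 2.39 to 14.67 TPM (median 6.5). The 3 lowest were Cldn5 at 1.45 to 6.16 TPM (median 3.39), Pcdh12 at 0.85 to 7.62 TPM (median 2.32) and Jam2 at 0.86 to 6.55 TPM (median 1.84). Levels of each of the 7 genes differed between the 12 models in limma's F test over 17542 genes (adjusted p from 3.99e-12 for Esam to 0.000178 for Cldn5), but so did 93.6% of all genes tested, so this was no feature of the set. The model means spanned 8.12-fold for Pcdh12, 5.23-fold for Esam, 4.41-fold for Jam2, 4.31-fold for Emcn, 4.23-fold for Cdh5, 2.87-fold for Pecam1 and 2.55-fold for Cldn5.

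The order of the models was similar for several genes at its ends and uncertain in its middle. From highest to lowest mean, Cdh5 ran BNL (30.3 ± 1.05 TPM, mean ± SD, n = 3), Renca, EMT6, 4T1, LL/2, Hepa 1-6, MBT2, MC38, CT26.WT, KLN205, B16-F10 and RAG (7.17 ± 0.403), and 3 of the 11 steps between neighbours exceeded the larger SD of the 2 models, all below MC38. Pcdh12 (38267089 to 38284402 of chromosome 18) encodes a protocadherin that joins endothelial cells without binding catenins. It ran Renca (7.23 ± 0.597), BNL, EMT6, LL/2, B16-F10, 4T1, KLN205, CT26.WT, Hepa 1-6, MBT2, RAG and MC38 (0.89 ± 0.0566, n = 2), with 6 such steps, among them the first 4. For Pecam1 the means fell into an upper set of BNL (34.4 ± 3.52), EMT6, Hepa 1-6, Renca and 4T1 (29.7 ± 6.95), none of which differed from its neighbour beyond the spread, and a lower set of MC38 (18.1), KLN205, MBT2, CT26.WT, RAG, LL/2 and B16-F10 (12 ± 0.913).

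Esam, an adhesion protein of endothelial tight junctions and platelets, was highest in Hepa 1-6 (31.2 ± 3.45) and Renca (29.3 ± 4.92), which did not differ beyond their spread, followed by EMT6, BNL, 4T1 (11.9 ± 1.3), CT26.WT, LL/2, MBT2, KLN205, RAG, MC38 and B16-F10 (5.96 ± 0.735). The last 7 of these lay between 5.96 and 7.86 TPM with no step beyond the spread. Jam2, which encodes the junctional adhesion molecule JAM-B, ran BNL (5.22 ± 0.684), EMT6, B16-F10, Renca, 4T1, LL/2, RAG, MBT2, MC38, Hepa 1-6, KLN205 and CT26.WT (1.18 ± 0.0987), with 0 of 11 steps beyond the spread. Its EMT6 mean of 3.52 rested on 1 tumor at 6.55 TPM beside 1.84 and 2.18 TPM. Cldn5 ran EMT6 (4.93 ± 0.966), Hepa 1-6, 4T1, LL/2, BNL, Renca, MBT2, KLN205, RAG, MC38, CT26.WT and B16-F10 (1.93 ± 0.422), with 1 step beyond the spread, from RAG to MC38. Emcn ran Renca (12.6 ± 1.48), EMT6, BNL, 4T1, MBT2, Hepa 1-6, KLN205, LL/2, B16-F10, CT26.WT, MC38 and RAG (2.93 ± 0.811), with steps beyond the spread from BNL to 4T1 and from CT26.WT to MC38.

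**Figure D1:**
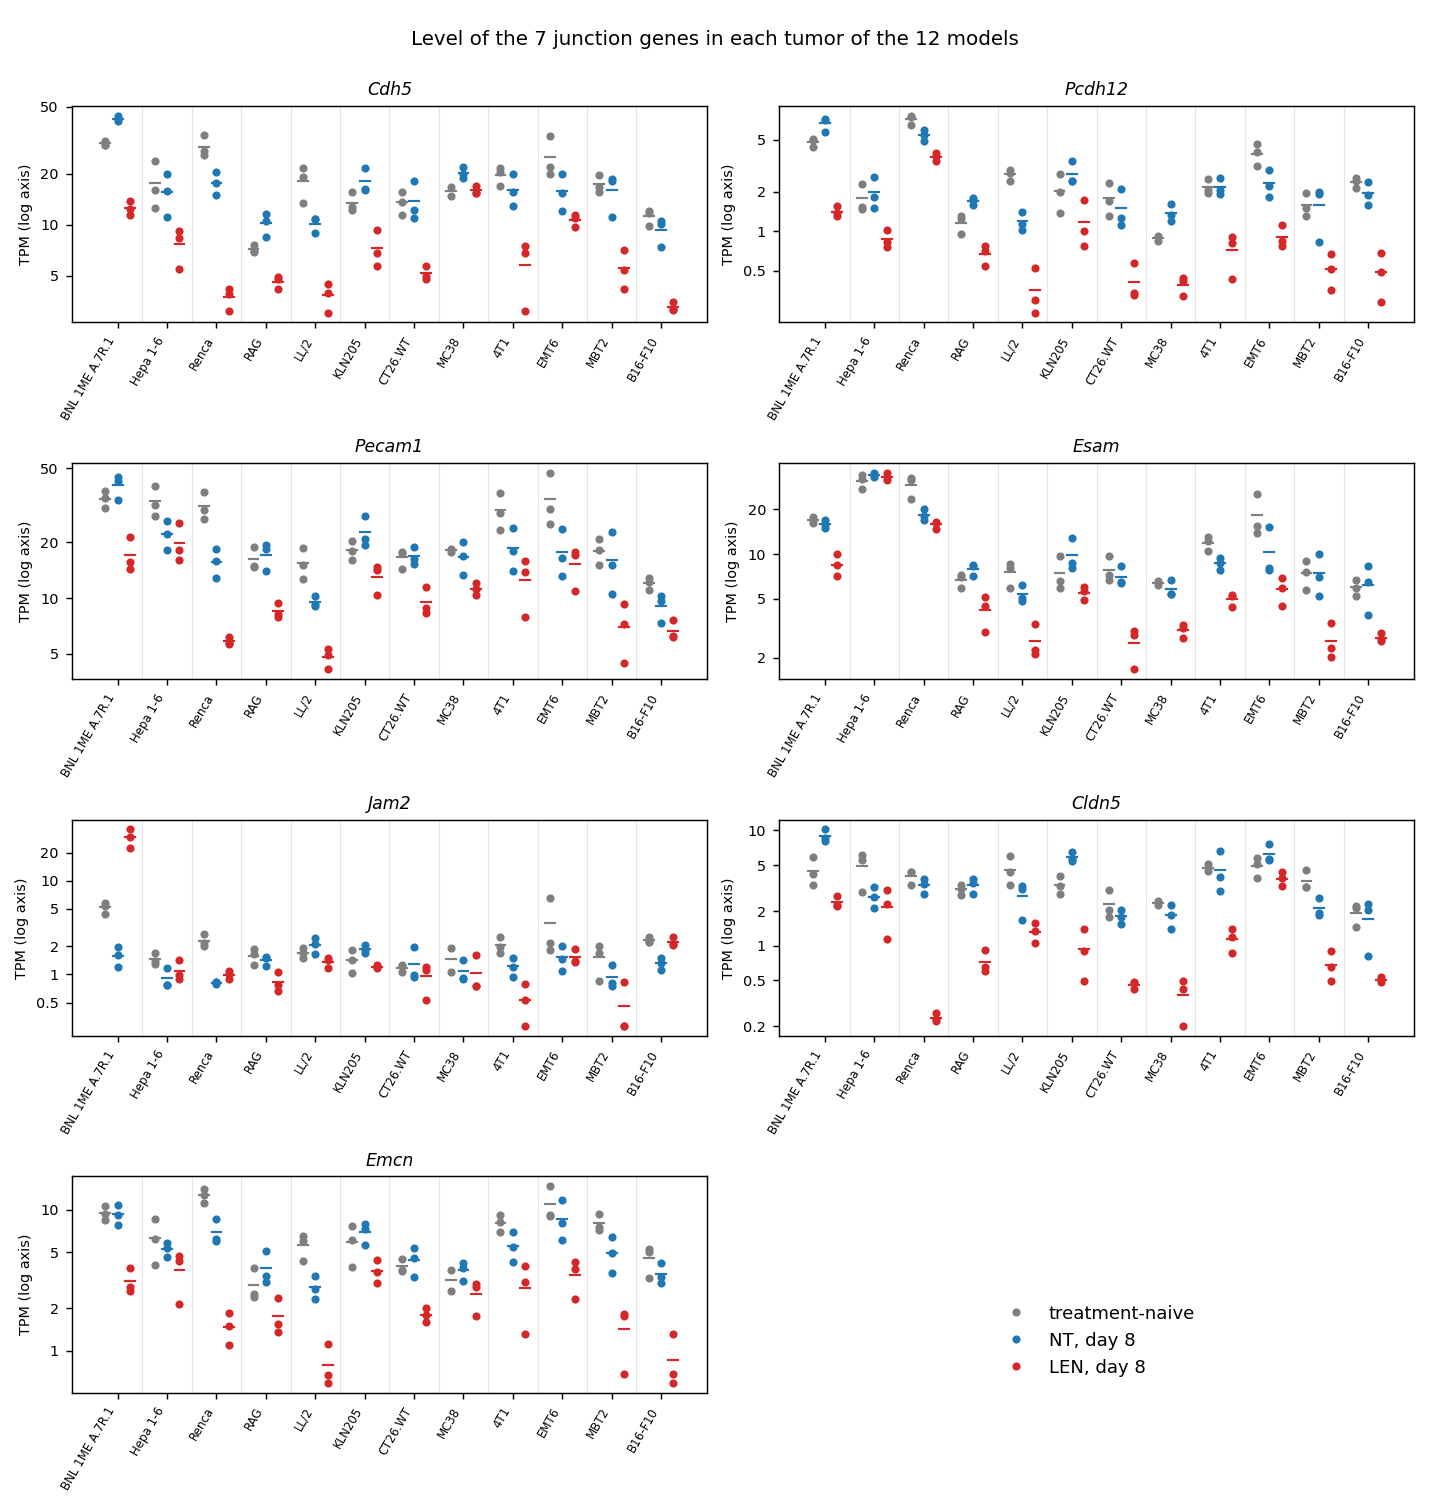
TPM of each of the 7 genes (log axis, 1 panel a gene) in every tumor of the 12 models, with treatment-naive tumors in gray, NT tumors in blue and LEN tumors in red. Points are single tumors and bars are group means; LEN points lie below NT points for Cdh5 and Pcdh12 in all 12 models, Esam stays between 31.46 and 35.4 TPM in day 8 Hepa 1-6 tumors, and Jam2 reaches 22.53 to 35.33 TPM in LEN tumors of BNL.

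The comparison of LEN with NT on day 8 asks what 7 days of the drug did beside growth over the same days. Cdh5, Pcdh12, Pecam1, Esam, Cldn5 and Emcn were lower in LEN tumors, on average over the 12 models and in the mean of each model, and Jam2 was not. In limma's fit of the 72 day 8 tumors over 17351 genes, these 6 of the 7 genes were called lower and 1, Jam2, higher, while 9.87% of all genes tested were called lower and 13.7% higher. The median change of the 7 genes was -0.83 on the log2(TPM + 1) scale and that of all genes -0.0019. Of the 84 pairs of a gene and a model, the mean was lower under LEN in 79, and in 69 each LEN tumor lay below each NT tumor, against 10.9% of all such pairs of tested genes. In 3 pairs, all of Jam2, each LEN tumor lay above each NT tumor (13.5% of all pairs), and in 12 pairs the groups overlapped.

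The cadherins fell on average, with a lower mean and no overlap in every model. Over the 36 tumors a group, Cdh5 ranged from 7.37 to 44.08 TPM with a median of 15.7 in NT and from 3.02 to 17 TPM with a median of 5.58 in LEN. Its mean change was -1.17 (SE 0.061, limma adjusted p = 2.41e-21, lower in 12 of 12 models), and each LEN tumor was below each NT tumor of its model in all 12. The LEN mean was between 21% (Renca) and 78.9% (MC38) of the NT mean, with a median of 37.5% over the models. Pcdh12 ranged from 0.83 to 7.25 TPM (median 1.93) in NT and from 0.24 to 3.95 TPM (median 0.735) in LEN. It changed by -0.83 (SE 0.046, limma adjusted p = 1.37e-20, lower in 12 of 12 models), again with no overlap in any model, and the LEN mean had a median of 32.7% of NT, from 21.1% in BNL to 68.4% in Renca. The percent of Pcdh12 is below that of Cdh5 while its log2 change is smaller because 1 was added to TPM before the logarithm, which damps changes of genes near 1 TPM.

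Pecam1 and Esam, which encode adhesion proteins of the immunoglobulin family like Jam2, also fell on average, with a lower mean in every model. Pecam1, which platelets and leukocytes also carry, ranged from 7.32 to 45.04 TPM (median 17.34) in NT and from 4.12 to 25.33 TPM (median 9.91) in LEN. Its mean change was -0.72 (SE 0.066, limma adjusted p = 1.37e-12, lower in 12 of 12 models), and its NT and LEN groups did not overlap in 8 models. They overlapped in Hepa 1-6, 4T1, EMT6 and B16-F10. The 5 platelet markers summed to 8.28 to 138 TPM in NT tumors and 11.08 to 189 TPM in LEN tumors, with 1 of the 4 tested called lower (Pf4), and 4 leukocyte markers to 61.68 to 1075 TPM and 143 to 1411 TPM, with 2 lower (Csf1r, Lyz2) and 1 higher (Cd3e). Both sums had a lower mean under LEN in 8 of 12 models. Over all genes, 9.87% were called lower and 13.7% higher. Without BNL, Pf4 (-0.20, limma adjusted p = 0.122) and Lyz2 (-0.21, limma adjusted p = 0.0737) did not pass, while Csf1r and Cd3e did. The part of these cell types in the fall of Pecam1 was not tested. Esam ranged from 3.86 to 35.4 TPM (median 8.28) in NT and from 1.67 to 35.24 TPM (median 4.49) in LEN. It changed by -0.74 (SE 0.057, limma adjusted p = 3.97e-15, lower in 12 of 12 models), with no overlap in 11 models and a median LEN level of 53.3% of NT.

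Cldn5 and Emcn fell on average as well, again with a lower mean in every model. Cldn5 ranged from 0.82 to 10.22 TPM (median 3.06) in NT and from 0.2 to 4.32 TPM (median 0.88) in LEN. It changed by -1.09 (SE 0.057, limma adjusted p = 2.41e-21, lower in 12 of 12 models), with no overlap in 11 models. Its LEN mean had a median of 26% of NT over the models, the lowest of the 7 genes, and reached 7.06% in Renca. Emcn ranged from 2.33 to 11.66 TPM (median 5.22) in NT and from 0.59 to 4.7 TPM (median 1.94) in LEN. It changed by -1.002 (SE 0.069, limma adjusted p = 9.38e-17, lower in 12 of 12 models), with no overlap in 11 models and a median LEN level of 40.6% of NT.

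Markers of several cell types moved with these falls, in a fit where 9.87% of all genes were called lower and 13.7% higher. The 5 endothelial markers, Kdr, Tie1, Erg, Egfl7 and Robo4, were all called lower (5 of 5, median change -0.71), and their sum ranged from 23.36 to 89.08 TPM in NT tumors and from 11.24 to 47.47 TPM in LEN tumors. The 5 pericyte markers were also all called lower (5 of 5, median change -0.37), with a summed level of 11 to 215 TPM and 7.12 to 192 TPM. Of 4 markers of lymphatic endothelium, Flt4 and Lyve1 were lower, Pdpn was higher and Prox1 was not called, and their sum ranged from 7.22 to 193 TPM and from 4.7 to 183 TPM. No endothelial or pericyte marker was at 0 in all tumors of a group. Other lists moved the opposite way on average. All 4 skeletal muscle markers were called higher (median change 1.14), as were 3 of 4 epithelial markers (median change 0.41) and the 1 adipocyte marker tested (0.54). Without BNL, where 8.36% of all genes were called higher, all 4 skeletal muscle markers still were (median change 0.76). Of the 4 epithelial markers, 1 was (Cdh1, median of the 4 at 0.02), and no adipocyte marker reached a mean of 1 TPM. The skeletal muscle markers summed to 1.06 to 133 TPM in NT tumors and 1.02 to 1940 TPM in LEN tumors, and the epithelial markers to 0.56 to 1466 TPM and 0.68 to 1279 TPM. The part of these cell types in the falls of the junction genes was not tested.

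Jam2 was the exception. It ranged from 0.76 to 2.44 TPM (median 1.24) in NT and from 0.28 to 35.33 TPM (median 1.15) in LEN. Its mean change of +0.16 (SE 0.049, limma adjusted p = 0.0104) was a rise in 5 models and a fall in 7, and it turned to -0.14 (limma adjusted p = 0.0339) without the BNL tumors, where 10% of all genes were called lower. In 4 models (RAG, LL/2, KLN205 and 4T1) each LEN tumor lay below each NT tumor and in 3 (BNL, Renca and B16-F10) each lay above. The 3 NT tumors of 4T1 had 0.93, 1.51 and 1.21 TPM and the 3 LEN tumors 0.79, 0.28 and 0.54 TPM. The LEN tumor at 0.28 TPM is the one that stood apart above, and it also had the lowest Cdh5, Pcdh12, Pecam1, Esam and Emcn of its group. Those of B16-F10 had 1.49, 1.12 and 1.34 TPM against 2.05, 2.1 and 2.51 TPM. In B16-F10 the summed markers rose in the same tumors, from 6.38 to 146 TPM for skeletal muscle, from 57.15 to 195 TPM for fibroblasts, from 71.6 to 202 TPM for leukocytes and from 0.567 to 7.16 TPM for adipocytes, and their part in the rise of Jam2 was not tested. Most Jam2 levels outside BNL were close to 1 TPM, where the precision is unknown.

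**Figure D2:**
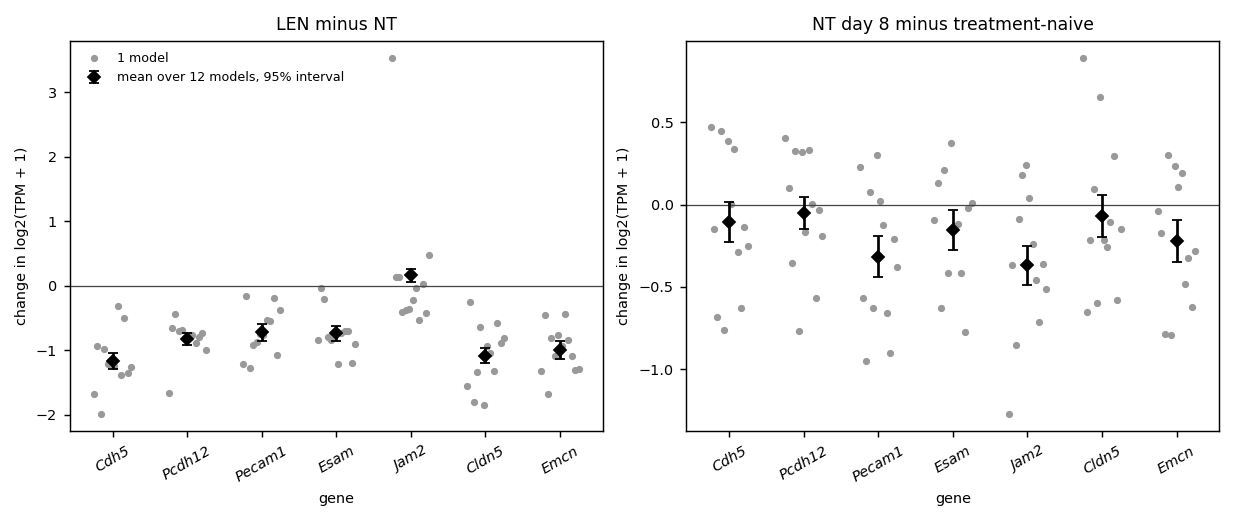
Change in log2(TPM + 1) of the 7 genes for LEN minus NT (left) and for NT on day 8 minus treatment-naive tumors (right), on separate vertical scales. Gray points are the 12 models and black diamonds the mean over models with its 95% interval from limma; on the left 6 genes lie below 0 in every model, while Jam2 has 1 model, BNL, at 3.52.

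Whether 1 gene fell more than another was tested on the difference of the 2 genes within each tumor, for all 21 pairs. Of these, 15 passed, with adjusted p over 17372 rows that also held all genes. These differences are on the log2(TPM + 1) scale, where the fall of a gene with a low level is understated, so each was also computed with 0.1 in place of 1. With either, 12 pairs passed in the same direction. Cdh5 fell more than Pecam1 by -0.45 (SE 0.053, adjusted p = 1.95e-09, in 11 of 12 models) and more than Esam by -0.43 (SE 0.056, adjusted p = 2.82e-08, in 10 models). Cldn5 and Emcn also fell more than Pecam1 and more than Esam, and all 6 pairs with Jam2 passed. For the other pairs except Pecam1 minus Esam, the call or the sign depended on the value added. Pcdh12 minus Cldn5 was 0.25 (adjusted p = 0.00337) with 1 and 0.30 (adjusted p = 0.0504) with 0.1, a larger fall of Cldn5 with either. Cdh5 minus Pcdh12 was -0.34 (adjusted p = 5.96e-09) with 1 and 0.12 (adjusted p = 0.149) with 0.1, and Cdh5 minus Emcn was -0.17 (adjusted p = 0.0169) and 0.03 (adjusted p = 0.816). Cdh5 minus Cldn5 was -0.09 (adjusted p = 0.366) and 0.42 (adjusted p = 0.000237), and Cldn5 minus Emcn -0.08 (adjusted p = 0.524) and -0.39 (adjusted p = 0.0192). Pcdh12 was below Pecam1 and Esam by -0.64 and -0.55 with 0.1, and not called with 1 (-0.11, adjusted p = 0.184, and -0.09, adjusted p = 0.241). Pecam1 minus Esam passed with neither, at 0.02 (95% interval -0.10 to 0.14) with 1 and 0.09 (-0.05 to 0.23) with 0.1.

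With each model fitted alone, the fall passed for few pairs. Of the 84 pairs, 15 were called lower (1.3% of all pairs of a gene and a model) and 1 higher (3.56%), 62 were not called, and 6 were not tested because the mean of Jam2 or Pcdh12 was below 1 TPM. In BNL, the 6 genes other than Jam2 were called lower (5.21% of genes in BNL) and Jam2 higher (26.3%). In Renca, Cdh5, Pcdh12, Pecam1, Cldn5 and Emcn were lower (7.15%), in B16-F10 Cdh5, Pcdh12 and Emcn (2.42%), and in KLN205 Cldn5 (0.15%). With the spread taken from all 72 day 8 tumors, 52 pairs were called lower (2.88% of all pairs) and 1 higher (4.17%). Pcdh12 was then lower in 11 of 12 models, Cdh5 in 10, Cldn5 and Esam in 9, Emcn in 7, Pecam1 in 5 and Jam2 in 1.

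**Figure D3:**
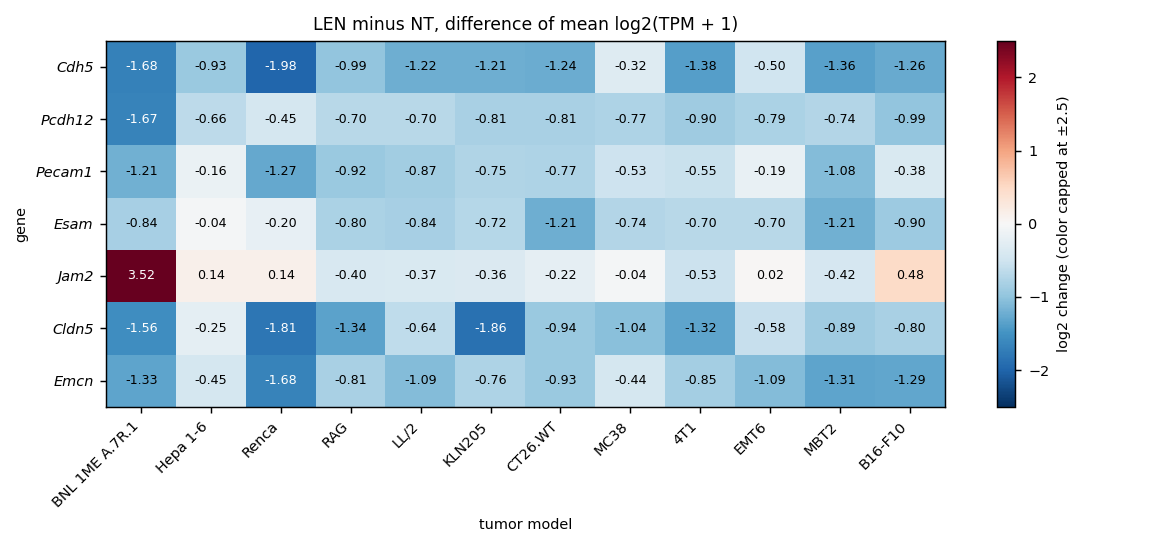
Difference between the LEN and NT means of log2(TPM + 1) for each of the 7 genes (rows) in each of the 12 models (columns), with blue for lower and red for higher under LEN. The lowest value is -1.98 (Cdh5 in Renca), the highest 3.52 (Jam2 in BNL), and Hepa 1-6 and MC38 hold several of the palest cells.

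The size of the LEN effect differed between models for 6 of the 7 genes in limma's F test (35.3% of all genes tested). The adjusted p was 3.35e-19 for Jam2, 2.53e-05 for Cldn5, 0.000709 for Cdh5, 0.00682 for Pcdh12, 0.0173 for Esam and 0.0329 for Pecam1, and 0.0535 for Emcn. Without BNL it was 0.000262 for Cldn5, 0.00534 for Cdh5, 0.0113 for Jam2 and 0.028 for Esam, but 0.768 for Pcdh12, 0.0897 for Pecam1 and 0.0956 for Emcn. To see which models stood apart, each model was set against the mean of the other 11, a test added after the values were seen. Of 84 pairs, 5 fell more and 4 fell less or rose (5.43% of all pairs of a gene and a model, either direction). With 0.1 in place of 1, the difference of Cdh5 in MC38 (1.05 against 0.93, limma adjusted p = 0.0518) and that of Cldn5 in KLN205 (-1.0008 against -0.84, limma adjusted p = 0.148) were larger in size but did not pass, and that of Pcdh12 in Renca did (0.96, 0.0389).

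In Renca, the size of the fall ranged widely between genes, and differences between genes within this model were not tested. The LEN mean was 37.2% of NT for Pecam1 and 21.3% for Emcn. Cdh5 was at 15.04, 17.64 and 20.44 TPM in NT and 4.19, 3.09 and 3.88 TPM in LEN, and Cldn5 at 3.44, 2.79 and 3.83 TPM in NT and 0.26, 0.23 and 0.22 TPM in LEN. The NT and LEN values of both genes were far apart. Cdh5 fell more than in the other 11 models by -0.88 (SE 0.22, limma adjusted p = 0.00805) and Cldn5 by -0.79 (SE 0.21, limma adjusted p = 0.0117), as did 4.31% of all genes in Renca. With 0.1 in place of 1, the difference of Cldn5 was -1.78 (limma adjusted p = 0.000134). Esam was at 17.09, 18.16 and 20.09 TPM in NT and 14.76, 16.31 and 16.55 TPM in LEN, so that its groups were separate by a small margin, with a LEN mean of 86% of NT against 7.06% for Cldn5 and 21% for Cdh5. The change of Esam in Renca was -0.20 (SE 0.092, limma adjusted p = 0.21) and differed from that in the other models by 0.59 with an adjusted p of 0.0864. Pcdh12 was at 4.87, 5.46 and 5.96 TPM in NT and 3.95, 3.76 and 3.43 TPM in LEN, the smallest relative fall of this gene over the 12 models. Its difference from the other 11 models was 0.42 (SE 0.17, limma adjusted p = 0.146), and 0.96 (limma adjusted p = 0.0389) with 0.1 in place of 1. Its change of -0.45 (SE 0.11, limma adjusted p = 0.0408) did not pass in 5 of the 6 fits that left out 1 of these tumors. The summed markers fell in Renca from 38.9 to 18.2 TPM for endothelial cells, from 53.7 to 24.4 TPM for pericytes, from 833 to 372 TPM for leukocytes and from 247 to 136 TPM for fibroblasts, and rose from 657 to 715 TPM for epithelial cells. Their part in the changes of the junction genes in Renca was not tested.

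In Hepa 1-6, the groups of Esam, Pecam1, Cldn5 and Emcn overlapped, and those of the cadherins did not. The LEN mean was 97.1% of NT for Esam, 90% for Pecam1, 81.5% for Cldn5 and 70.9% for Emcn, against 49% for Cdh5. Esam was at 33.24, 35.4 and 33.87 TPM in NT, 32.83, 31.46 and 35.24 TPM in LEN and 34.07, 27.36 and 32.09 TPM in treatment-naive tumors. All 3 groups overlapped at a level above that of any other model on day 8. The change of -0.04 (SE 0.080) was above the mean of -0.80 in the other 11 models by 0.76 (SE 0.21, limma adjusted p = 0.0147). Cldn5 was at 2.13, 2.65 and 3.21 TPM in NT and 3.07, 2.3 and 1.14 TPM in LEN, with overlapping groups, and its change was above that of the other 11 models by 0.91 (SE 0.21, limma adjusted p = 0.00353). In Hepa 1-6, 7.57% of all genes stood above the other models in this way. Cdh5 was at 11.14, 15.8 and 19.97 TPM in NT and 8.38, 9.13 and 5.47 TPM in LEN, so every LEN tumor lay below the NT tumors. Its difference from the other models was 0.26 (95% interval -0.18 to 0.71). With the spread of all 72 tumors, Cdh5 was called lower in Hepa 1-6 (change -0.93, SE 0.21, limma adjusted p = 0.00321), and so was Pcdh12 (change -0.66, SE 0.16, limma adjusted p = 0.00502), whose LEN mean was 43.7% of NT without overlap. In Hepa 1-6 the summed leukocyte markers rose without overlap, from 440 TPM (274 to 668) in NT to 944 TPM (736 to 1103) in LEN, while the pericyte sum went from 103 to 82.5 TPM, the endothelial sum from 41.4 to 32.9 TPM and the epithelial sum from 920 to 980 TPM. Their part in these values was not tested.

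In MC38, Cdh5 moved least of the 6 genes that fell on average, in percent of NT. It was at 19.87, 21.93 and 18.87 TPM in NT, 17, 15.39 and 15.49 TPM in LEN and 16.75 and 14.88 TPM in the treatment-naive tumors, so the LEN tumors lay just below NT and overlapped the treatment-naive tumors. Its change of -0.32 (SE 0.085) was above that of the other 11 models by 0.93 (SE 0.22, limma adjusted p = 0.0409), as were those of 0.133% of all genes in MC38. Cldn5 was at 1.85, 2.26 and 1.39 TPM in NT and 0.49, 0.2 and 0.42 TPM in LEN in the same tumors, and Pcdh12 at 1.34, 1.61 and 1.2 TPM and 0.32, 0.42 and 0.44 TPM. These levels had LEN means of 20.2% and 28.4% of NT, against 78.9% for Cdh5. The endothelial markers summed to 51.1 TPM in NT and 43 TPM in LEN in MC38.

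In KLN205, Cldn5 was at 5.67, 5.39 and 6.57 TPM in NT and 0.49, 1.4 and 0.9 TPM in LEN, and it fell more than in the other 11 models by -0.84 (SE 0.21, limma adjusted p = 0.0225), as did 1.01% of all genes in KLN205. The summed markers there went from 54.8 to 33.8 TPM for endothelial cells, from 88.7 to 67.4 TPM for pericytes and from 306 to 182 TPM for leukocytes, each without overlap, and from 891 to 574 TPM for fibroblasts, and their part in the fall was not tested. Jam2 in 4T1, given above, also fell relative to the other 11 models, by -0.76 (SE 0.18, limma adjusted p = 0.00473, 13.8% of all genes in 4T1), but the mean of the other 11 includes the rise in BNL. Without the LEN tumor that stood apart, the difference was -0.63 and did not pass (limma adjusted p = 0.105), while those of Jam2 in MBT2 (-0.65, limma adjusted p = 0.0325), RAG (-0.63, 0.0405), LL/2 (-0.60, 0.0306) and KLN205 (-0.58, 0.0496) did. Whether Jam2 fell more in 4T1 than in these 4 models was not tested.

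BNL had both the largest rise and some of the largest falls. Jam2 was at 5.43, 5.78 and 4.46 TPM in treatment-naive tumors, 1.95, 1.61 and 1.21 TPM in NT and 29.13, 22.53 and 35.33 TPM in LEN. The 3 groups did not overlap, and the LEN mean was 18.2 times that of NT and 5.55 times that of treatment-naive tumors. The change of 3.52 (SE 0.18, limma adjusted p = 4.96e-05) was above the mean of -0.14 in the other 11 models by 3.67 (SE 0.18, limma adjusted p = 5.58e-24). It ranked 89 from the top among 17009 genes in BNL. Pcdh12 went the other way in the same tumors, at 7.13, 7.25 and 5.72 TPM in NT and 1.39, 1.55 and 1.31 TPM in LEN. It fell more than in the other 11 models by -0.91 (SE 0.17, limma adjusted p = 2.57e-05), and by -0.81 (limma adjusted p = 0.0457) with 0.1 in place of 1. Cdh5 was at 41.99, 44.08 and 41.21 TPM in NT, the highest of the 12 models, and 12.46, 13.81 and 11.4 TPM in LEN.

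The make-up of the BNL tumors also moved. From NT to LEN, the summed epithelial markers rose from a mean of 26.3 TPM (15.64 to 37.18) to 915 TPM (831 to 993), the skeletal muscle markers from 66.9 TPM (25.37 to 93.74) to 1632 TPM (1353 to 1940), and the adipocyte markers from 1.03 TPM (0.4 to 2.07) to 28.8 TPM (13.3 to 41.26). None of these markers was at 0 in all tumors of a BNL group. The treatment-naive BNL tumors, whose Jam2 level was also between those of NT and LEN, had summed epithelial and skeletal muscle markers of 152 and 377 TPM. The fibroblast sum was 3140 TPM in NT and 2513 TPM in LEN and the leukocyte sum 794 and 731 TPM. The part of these cell types in the rise of Jam2 was not tested. In BNL, 19.7% of all genes rose relative to the other 11 models and 2.24% fell.

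**Figure D4:**
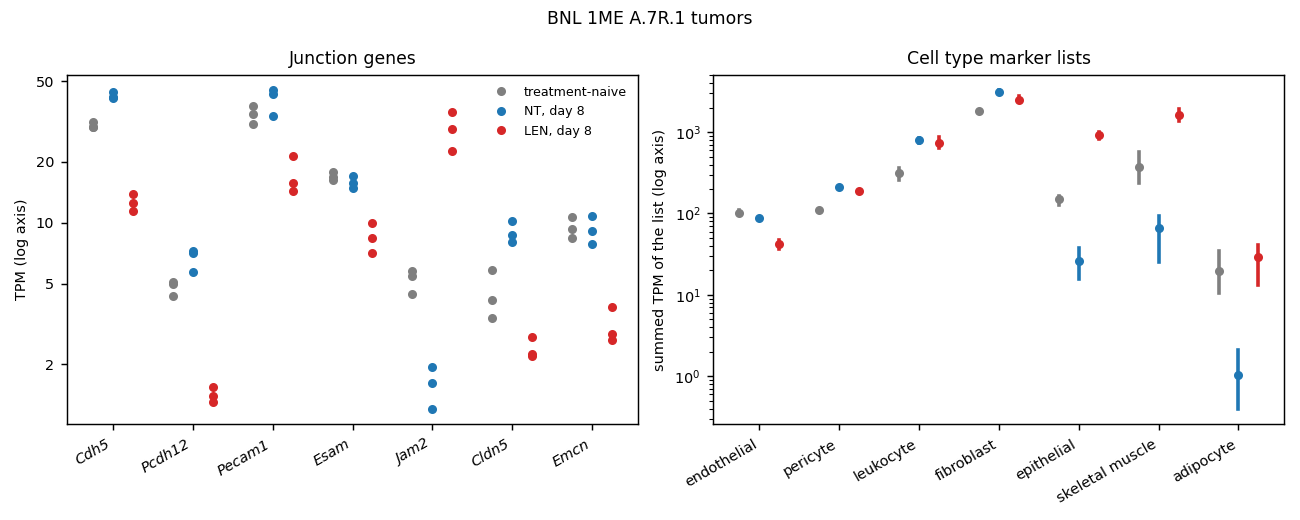
BNL tumors only. Left, TPM of the 7 genes in each tumor (log axis); right, summed TPM of 7 cell type marker lists (log axis), with the mean as a point and the lowest and highest tumor as the ends of a line. Gray is treatment-naive, blue NT and red LEN; Jam2 and the epithelial, skeletal muscle and adipocyte sums are lowest in NT, while the other 6 genes are lowest in LEN.

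The comparison of NT on day 8 with treatment-naive tumors asks what changed over 7 days of growth without drug. Pecam1, Jam2, Emcn and Esam were lower on day 8, by less than under LEN except for Jam2, and Cdh5, Pcdh12 and Cldn5 were not called. In limma's fit of 71 tumors, 4 of the 7 genes were called lower (11.5% of 17428 genes) and 0 higher (17%). Pecam1 changed by -0.32 (SE 0.063, adjusted p = 0.00013, lower in 8 of 12 models), Jam2 by -0.37 (SE 0.059, adjusted p = 5.34e-06, 9 models), Emcn by -0.22 (SE 0.064, adjusted p = 0.00705, 8 models) and Esam by -0.16 (SE 0.060, adjusted p = 0.0459, 8 models). The call of Esam was lost in 42 of 71 fits without 1 tumor (adjusted p up to 0.0752) and in 7 of 12 without 1 model (up to 0.215). That of Emcn was lost without Renca (0.0535) or LL/2 (0.0519). Cdh5 changed by -0.10 (95% interval -0.22 to 0.02), Pcdh12 by -0.05 (-0.15 to 0.05) and Cldn5 by -0.07 (-0.20 to 0.06).

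The models differed in this change for all 7 genes (F test, adjusted p from 0.000134 to 0.0144), as they did for 66.5% of all genes. By model, with the spread of all 71 tumors, 17 of 84 pairs were called lower (5.22% of all pairs) and 2 higher (8.69%). Of the 17, 14 were in EMT6 (5 genes, 11.7% of all genes there), Renca (5 genes, 10.3%) and LL/2 (4 genes, 3.72%). In Renca, Pecam1 was at 26.68, 37.22 and 29.78 TPM in treatment-naive tumors and 12.81, 15.9 and 18.28 TPM in NT (change -0.95, SE 0.22, limma adjusted p = 0.00175), with no overlap. In LL/2, Pcdh12 was at 2.42, 2.96 and 2.81 TPM and then 1.41, 1.03 and 1.14 TPM (change -0.77, SE 0.17, limma adjusted p = 0.000908). Cell type markers moved as well in the models with most of the calls. From treatment-naive to NT, the endothelial sum went from 98.4 to 38.9 TPM, the fibroblast sum from 887 to 247 TPM and the skeletal muscle sum from 182 to 38.6 TPM in Renca, the endothelial sum from 103 to 52.9 TPM in EMT6, and the leukocyte sum from 1354 to 482 TPM in LL/2. Their part in the falls was not tested. The 2 rises were both of Cldn5, in BNL, where 22.5% of all genes were called higher, and in KLN205, where 30.5% were. In BNL it was at 3.39, 5.85 and 4.18 TPM in treatment-naive tumors and 8.68, 10.22 and 8.06 TPM in NT (change 0.89, SE 0.21, limma adjusted p = 0.00129), and in KLN205 at 2.79, 4.03 and 3.33 TPM and then 5.67, 5.39 and 6.57 TPM (change 0.66, SE 0.21, limma adjusted p = 0.0166).

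Against treatment-naive tumors, LEN tumors were lower in all 7 genes (16.8% of 17501 genes were called lower), a comparison that shares its tumors with the 2 above. The changes were -1.28 (SE 0.059, limma adjusted p = 1.58e-23) for Cdh5, -1.22 for Emcn, -1.16 for Cldn5, -1.04 for Pecam1, -0.90 for Esam, -0.88 for Pcdh12 and -0.21 (SE 0.061, limma adjusted p = 0.00591) for Jam2. Without BNL, that of Jam2 was -0.43 (limma adjusted p = 6.11e-07). The median LEN level over the models was 25.2% of treatment-naive for Cldn5, 32.7% for Pcdh12, 33.5% for Emcn, 39.7% for Cdh5, 47.2% for Esam, 51.3% for Pecam1 and 73.3% for Jam2. The LEN mean stayed at or above the treatment-naive mean in MC38 for Cdh5 (101%), in Hepa 1-6 for Esam (106%) and in BNL for Jam2 (555%).

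The proteins that these genes work with at the junction were followed in 5 lists of 40 genes, of which 39 were tested. In limma's fit, 10 were called lower and 5 higher, against 9.87% and 13.7% of all genes, and 24 were not called. The share called higher was close to that of all genes. Without BNL, the same 10 were still lower and 2 more were (10% of all genes), while 4 of the 5 higher calls were lost (8.36%). The 2 more were F11r and Cgnl1 (-0.17, limma adjusted p = 0.0204), which encodes paracingulin.

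The catenins and their relatives did not follow Cdh5. Of 8 adherens junction genes (median change 0.05), 1 was lower (9.87% of all genes) and 2 were higher (13.7%). Ptprb, the endothelial phosphatase that binds VE-cadherin, changed by -0.52 (SE 0.051, limma adjusted p = 1.36e-11, lower in 11 of 12 models), while Vcl, which encodes vinculin, changed by +0.20 (SE 0.035, limma adjusted p = 1.13e-05) and the cadherin Cdh2 by +0.18 (SE 0.039, limma adjusted p = 0.000342). The other 5, among them the catenin genes, changed by -0.06 to 0.07 and did not pass. These are expressed by many cell types in a tumor, and the mean NT level of Ctnnb1 was 248 TPM. Which cells this RNA came from was not tested. In BNL, Cdh2 changed by +2.41, and without BNL its mean change was -0.02 (limma adjusted p = 0.777), while Vcl still passed (+0.15, limma adjusted p = 0.00334).

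Of 10 tight junction genes (median change 0.01), 0 were lower (9.87% of all genes) and 2 were higher (13.7%). The 2 were Cgn (cingulin, +0.24, SE 0.039, limma adjusted p = 3.29e-06) and Ocln (occludin, +0.17, SE 0.063, limma adjusted p = 0.0438). Both rises rested on BNL, where Cgn changed by +3.22 and Ocln by +2.05. Without BNL they were -0.03 (limma adjusted p = 0.619) and -0.00 (limma adjusted p = 0.981). Paralogs of Jam2 are in this list, F11r (JAM-A) with -0.13 (SE 0.050, limma adjusted p = 0.0512) and Jam3 (JAM-C, the partner of JAM-B across the contact) with -0.12 (SE 0.046, limma adjusted p = 0.0511). Neither passed, and they are named here after their values were seen. With 0.1 in place of 1, both passed, at -0.22 (limma adjusted p = 0.00393) and -0.25 (limma adjusted p = 0.0137). Without BNL, F11r passed at -0.30 (limma adjusted p = 2.79e-05) and Jam3 did not (-0.11, limma adjusted p = 0.122).

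Of 3 gap junction connexins tested (median change -0.25), 2 were lower, Gjc1 (connexin 45) by -0.39 (SE 0.050, limma adjusted p = 1.5e-08, 11 of 12 models) and Gja4 (connexin 37 of arterial endothelium) by -0.25 (SE 0.058, limma adjusted p = 0.000843, 10 models). Of 10 genes of junction signaling through Rap1 and the CCM proteins (median change -0.00), 1 was lower and 1 higher. These counts were close to the shares of all genes (9.87% lower and 13.7% higher). Rasip1, an endothelial effector of Rap1, fell in 12 of 12 models by -0.48 (SE 0.058, limma adjusted p = 3.18e-09), and Rap1b rose by 0.15 (SE 0.048, limma adjusted p = 0.0146), which again rested on BNL (-0.05 without it, limma adjusted p = 0.551).

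Other surface proteins of the endothelial border moved with the junction genes. Of 8 tested (median change -0.57), 6 were lower (9.87% of all genes) and 0 higher (13.7%). The lowest changes were those of Icam2, an endothelial adhesion protein, at -0.86 (SE 0.082, limma adjusted p = 4.93e-12, 12 of 12 models) and Tie1, an endothelial receptor kinase, at -0.85 (SE 0.057, limma adjusted p = 4.1e-17, 12 models). The smallest falls were those of Podxl (podocalyxin) at -0.20 (SE 0.051, limma adjusted p = 0.00236, 9 models) and Cd34 at -0.50 (SE 0.065, limma adjusted p = 2.83e-08, 9 models). Tie1 is also among the 5 endothelial markers above. In BNL Podxl changed by +2.24, and without BNL its mean change was -0.42 (limma adjusted p = 9.87e-08).

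The genes most like each junction gene were looked for among 17428 genes with a mean of at least 1 TPM, first over the 36 group means and then over the deviations of all tumors from their group means. These are Pearson correlations of log2(TPM + 1), given as a description, whose points share cell lines and host strains. Over the group means, the first 3 were Tie1 (r = 0.92), Robo4 (0.91) and Emcn (0.89) for Cdh5, Tie1 (0.94), Sox18 (0.93) and Afap1l1 (0.91) for Emcn, Adcy4 (0.94), Erg (0.93) and Tie1 (0.91) for Pecam1, Rasip1 (0.90), Fam167b (0.89) and Nid2 (0.85) for Pcdh12, and Tie1 (0.85), Gpihbp1 (0.83) and Emcn (0.83) for Cldn5. Tie1 was thus among the first 3 for 4 of the 7 genes. Esam had Vsig2 (0.88), Dnajb13 (0.85) and Naprt (0.84), and Jam2 had Cdh6 (0.90), Apobec2 (0.88) and Ldb3 (0.87), none of them on the endothelial lists used here.

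Within groups, with the group means removed, the neighbours of Esam and Jam2 were others. Esam then had Rgs5 (r = 0.74), Kdr (0.69) and Ptprb (0.69), and Jam2 had Aoc3 (0.61), Eng (0.60) and Epas1 (0.60). Cdh5 had Nid2 (0.78), Cd93 (0.76) and Kdr (0.73), Pecam1 had Epas1 (0.77), Plvap (0.76) and Podxl (0.70), Emcn had Ptprb (0.74), Cyyr1 (0.69) and Itga1 (0.68), and Pcdh12 had Sox18 (0.73), Cdh5 (0.69) and Tie1 (0.68). Cldn5 had the weakest, Gpihbp1 (0.49), Nid2 (0.48) and Rflnb (0.47). Among the 7 genes themselves, the 15 pairs without Jam2 had r of 0.54 to 0.89 over group means (median 0.71) and 0.23 to 0.69 within groups (median 0.54). The 6 pairs with Jam2 had r of 0.14 to 0.28 over group means (median 0.23) and 0.22 to 0.54 within groups (median 0.40).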

How the data were processed

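RNA of 35 treatment-naive, 36 NT and 36 LEN tumors was measured in libraries depleted of ribosomal RNA. The submitters' processing notes name Trimmomatic 0.36, STAR 2.5.2b and RSEM 1.2.31. The authors deposited TPM for 50686 genes, which sums to 999999 to 1000001 in each tumor and keeps no depth, so counting precision is unknown. Gene types and positions came from GENCODE M21 and promoter sequences from RefSeq (GRCm38.p6).

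Values were analyzed as log2(TPM + 1), for genes with a mean of at least 1 TPM in the fitted tumors, by limma 3.58.1 in R 4.3.3 (lmFit, eBayes with a mean-variance trend). P-values were adjusted by Benjamini-Hochberg over all genes tested, with a threshold of 0.05. LEN and NT were compared in 1 fit of 72 day 8 tumors as 24 groups and within each model. Day 8 and treatment-naive tumors were compared only in fits of all models, which also gave the values by model. The contrast of 1 model with the other 11 was added after seeing the data. The 7 genes, the lists and the tests were chosen with earlier results of these data known. The genes named are these 7, for each partner list the 2 lowest and 2 highest changes among the genes that passed, and the 3 genes most like each. F11r, Jam3, Cgnl1, Ctnnb1 and the cell type markers fall outside this rule, and the first 4 were named after their values were seen. Replicate numbers did not pair tumors: of 20 same-numbered pairs of NT and LEN tumors, 0 had correlated deviations over 0.1 (range -0.08 to 0.08). P-values measure the spread between tumors of separate mice.

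The code was tested on simulated data. Of 200 genes changed in all models by 0.5, 97% were recovered in the mean over models, among 16472 genes. Of 200 genes changed in Renca only by 1.5, 84.5% were recovered by the F test between models. The changed genes were drawn from genes with a higher mean level than Jam2, Pcdh12 and Cldn5, so the recovery does not apply to these. Tables were handled in Python 3.11.15 with pandas 2.3.3 and numpy 2.4.6, and plots drawn with matplotlib 3.10.9. The counts of calls and the mean change of each gene were recomputed with a smaller pseudocount (0.1), with a stricter minimum (mean of 5 TPM) and with none, after upper-quartile rescaling and after rescaling to protein-coding genes, without the trend, with the replicate block (not within single models or for treatment-naive levels), with other sets of fitted tumors, and without each tumor. The mean effects, the pairs of genes and the partner genes were also recomputed without each model. Single pairs of genes and the contrasts of 1 model with the other 11 were recomputed only with the smaller pseudocount and the block, and the latter also without 1 LEN tumor of 4T1.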

Additional observations from a re-analysis of the deposited data

Results flagged for a closer look

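The effect of LEN differed between the 12 models, by limma's F test over 72 tumors, for Jam2 (adjusted p = 3.35e-19), Cldn5 (2.53e-05), Cdh5 (0.000709), Pcdh12 (0.00682), Esam (0.0173) and Pecam1 (0.0329). Single models that differed from the mean of the other 11 were BNL for Jam2 (difference 3.67) and Pcdh12 (-0.91), Renca for Cdh5 (-0.88) and Cldn5 (-0.79), Hepa 1-6 for Cldn5 (0.91) and Esam (0.76), MC38 for Cdh5 (0.93), KLN205 for Cldn5 (-0.84) and 4T1 for Jam2 (-0.76). These were tested as contrasts within the same fit and chosen after the values were seen. Of the 3 LEN tumors of 4T1, 1 stood apart in its share of protein-coding genes (27.5% against 43.8% and 45.3%), and without it the difference of Jam2 in 4T1 was -0.63 (adjusted p = 0.105).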

How the results depend on the processing

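The mean change of Jam2 lost its call or its sign in several settings. Its value of 0.16 turned to -0.14 without BNL, and it did not pass with a pseudocount of 0.1 (adjusted p = 0.584), rescaling over protein-coding genes (0.0942), the replicate block (0.191) or without B16-F10 (0.0661). The falls of the other 6 genes under LEN passed in every alternative that tested them and without each tumor or model. A minimum mean of 5 TPM left fewer genes to test, and the counts became 3 for LEN against NT, 3 for LEN against treatment-naive, 3 for the difference between models, 4 for the treatment-naive levels and 2 for the pairs of genes. The 16 calls within models became 32 after rescaling over protein-coding genes and 53 with the spread of all 72 tumors. For NT against treatment-naive, 4 calls became 2 without Renca and 2 without LL/2, and the change of Pcdh12 turned from -0.05 to 0.015 without LL/2 (adjusted p = 0.859). Cdh5 passed there after upper-quartile rescaling (-0.15, adjusted p = 0.0369) and rescaling over protein-coding genes (-0.17, adjusted p = 0.0264).

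With the replicate block, 2 genes rather than 6 had an effect that differed between models, and 13 pairs of genes rather than 15 differed, without Cdh5 minus Emcn (adjusted p = 0.173) and Esam minus Emcn (0.275). The calls lost among the mean effects were those of Jam2 against NT and against treatment-naive (adjusted p = 0.0788), of Esam on day 8 (0.0841), and of the partners Cdh2 (0.244), Ocln (0.15) and Gja4 (0.0663). Of the 9 differences of 1 model from the other 11, those of Jam2 in BNL and Cldn5 in Renca passed with the block. With a pseudocount of 0.1, 12 of the 15 called pairs of genes were called in the same direction, 3 were lost and 4 gained, and Cdh5 minus Pcdh12 (0.12), Cdh5 minus Emcn (0.032), Cdh5 minus Cldn5 (0.42) and Pcdh12 minus Emcn (-0.089) changed sign. Of the 9 differences of 1 model from the others, 7 passed there and 1 was gained (Pcdh12 in Renca, 0.96, adjusted p = 0.0389). Without 4T1 LEN replicate 4, that of Jam2 in 4T1 was -0.63 (adjusted p = 0.105) and 6 were gained, among them Jam2 in 4 other models. These settings of that contrast were chosen after seeing the data. Same-numbered tumors did not deviate together, so this fit is no stricter test. Leaving out 1 tumor gave 7 to 7 calls for LEN against NT, 7 to 7 for LEN against treatment-naive, 3 to 4 for NT against treatment-naive, 5 to 7 for the difference between models, 15 to 18 within models, 15 to 16 pairs of genes, 14 to 19 partner genes and 7 to 7 for treatment-naive levels. TPM gives no depth, so the precision of values near 1 TPM (Jam2, Pcdh12 and Cldn5 under LEN) is unknown.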
